A study of Mus musculus with 4 samples.

Results

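The promoters of 82 genes named as ribosomal protein genes were examined in EpRas cells as a reference set of promoters that growing cells use constitutively. Members were protein-coding autosomal mouse genes of the GENCODE annotation whose symbol was Rpl or Rps followed by a digit, together with Rplp0, Rplp1, Rplp2 and Rpsa. Ribosomal S6 kinases and pseudogene symbols were left out. The 82 genes were taken from 20807 protein-coding autosomal genes and comprised 30 of the small subunit, 40 of the large subunit, the 3 stalk proteins, and 9 paralogs or other genes. The last group held Rpl3l, Rpl7l1, Rpl10l, Rpl22l1, Rpl36al, Rpl39l, Rps27l, the retrogene Rps27rt and Rps19bp1, which encodes a protein that binds RPS19 and is no part of the ribosome. A promoter was called accessible where a peak had its middle within 2 kb of any annotated transcription start site (TSS) of the gene.

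The data came from formaldehyde-assisted isolation of regulatory elements (FAIRE) followed by sequencing. In this assay, cells are fixed and sheared, and DNA that is poorly bound by nucleosomes is recovered from the aqueous phase of a phenol extraction. EpRas is a mouse mammary gland epithelial cell line that carries active H-Ras, and every group examined here consisted of these cells at day 4. The 4 groups were siControl without TGF-β, siControl with TGF-β3 at 1 ng/ml, and TGF-β3 at the same dose with either of 2 siRNA sets directed against the ETS family transcription factors Etv4 and Etv5, called siEtv4/5 set 1 and set 2. Set 2 included a custom-made siRNA. Each group had 1 peak list, so that differences between groups have no replicate check and no test of a condition was made. Intervals given below are for shares of genes and treat genes as independent draws. They cover neither the error of read counts nor differences between replicates.

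The ribosome is built from a small and a large subunit, each made of ribosomal RNA and of proteins, most of which are needed in equal numbers. Most of these proteins are encoded by single genes scattered over the genome, which are transcribed together in all growing cells and account for a large share of messenger RNA. Their messages typically begin with a C followed by a run of pyrimidines, the 5′ terminal oligopyrimidine (TOP) element, through which their translation responds to nutrient signalling. Many ribosomal protein genes also host small nucleolar RNAs in their introns.

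To show what these start regions look like, 6 stretches of the GRCm38 (mm10) assembly as released by RefSeq are given, from 100 bases before to 20 bases after the GENCODE start. Rpl27, Rps26 and Rps21 had the highest mean fold enrichment and Rps28 had the lowest among members called in all 4 libraries. Rps2, together with Rpl34, had the longest pyrimidine run over the start among members called in all 4 libraries, and Rpl4 had the longest among those called in none. Capitals mark a run of 6 or more C or T that covers the start. They also mark matches to motif letters: a pair of ETS matches, SP1 on the other strand and NFY in Rps21, and YY1 on the other strand in Rps28. The letters TATAAA before the start of Rps2 are a match too, but are left in small letters.
Rpl27, chr11:101442198-101442317, plus strand: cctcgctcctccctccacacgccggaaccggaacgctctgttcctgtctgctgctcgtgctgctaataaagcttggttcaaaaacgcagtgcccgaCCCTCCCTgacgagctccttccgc
Rps26, chr10:128626728-128626847, minus strand: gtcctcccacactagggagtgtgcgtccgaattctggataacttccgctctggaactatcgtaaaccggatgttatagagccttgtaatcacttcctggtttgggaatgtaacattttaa
Rps21, chr2:180257277-180257396, plus strand: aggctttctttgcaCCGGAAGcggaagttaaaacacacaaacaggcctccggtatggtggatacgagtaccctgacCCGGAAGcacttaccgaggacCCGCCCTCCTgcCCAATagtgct
Rps28, chr17:33824543-33824662, minus strand: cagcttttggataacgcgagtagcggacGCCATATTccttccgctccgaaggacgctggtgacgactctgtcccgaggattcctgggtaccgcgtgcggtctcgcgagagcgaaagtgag
Rps2, chr17:24720010-24720129, plus strand: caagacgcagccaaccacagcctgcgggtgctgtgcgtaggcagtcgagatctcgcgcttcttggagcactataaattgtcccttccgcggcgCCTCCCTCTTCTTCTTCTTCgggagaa
Rpl4, chr9:64173275-64173394, plus strand: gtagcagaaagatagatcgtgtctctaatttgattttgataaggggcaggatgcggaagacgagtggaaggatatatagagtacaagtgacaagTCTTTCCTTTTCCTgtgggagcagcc

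The peak lists held between 14925 peaks (siEtv4/5 set 2) and 28754 peaks (siControl with TGF-β). The depth estimated from the deposited values was 15.3, 16.3, 17.3 and 20.7 M reads in siControl untreated, siControl plus TGF-β, set 1 and set 2, so that the shortest list came from the deepest library. Of 6 epithelial marker genes, 5, 3, 3 and 3 had a promoter peak in the same order, and Krt5 had none in any library. Of 8 marker genes of blood, vessel, fat, liver and muscle cells, 1, 2, 1 and 1 had a promoter peak, namely Cd68 in every library and Pecam1 in siControl with TGF-β. The Etv4 promoter had a peak in every library, with fold enrichments of 9.60, 12.7, 10.8 and 8.39, which does not check the siRNAs, because these act on RNA.

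Most ribosomal protein gene promoters were accessible in every condition. A promoter peak was called at 72 of 82 genes in siControl untreated, 73 in siControl with TGF-β, 63 in set 1 and 58 in set 2. These are 87.8% (95% Wilson interval 79.0 to 93.2), 89.0% (80.4 to 94.1), 76.8% (66.6 to 84.6) and 70.7% (60.1 to 79.5). Over all protein-coding autosomal genes the shares were 37.6%, 39.7%, 35.6% and 28.5%. In all 4 libraries a peak was called at 51 of the 82 genes (62.2%, 51.4 to 71.9), against 24.8% of all genes. In no library was a peak called at 6 of them (7.32%, 3.40 to 15.1), against 55.8% of all genes. Over the 3 libraries other than set 2, the count called throughout was 60 of 82, against 30.9% of all genes. With every list shortened to the 14925 most significant peaks, 66, 61, 57 and 58 of 82 genes were called, against 31.3%, 29.2%, 29.0% and 28.5% of all genes. The count was then highest in siControl untreated and lowest in set 1. In all 4 shortened lists 44 genes were called, against 19.2% of all genes. No peak was counted for more than a single member. However, 47 of the 82 genes had the TSS of another annotated gene within 2 kb, which was protein-coding for 18. Where the starts are close, as with 10 bp between those of Rps28 and Ndufa7, a peak cannot be assigned to one of the pair. Others are farther apart, as with 1759 bp between those of Rpl37 and Snord72.

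**Figure D1:**
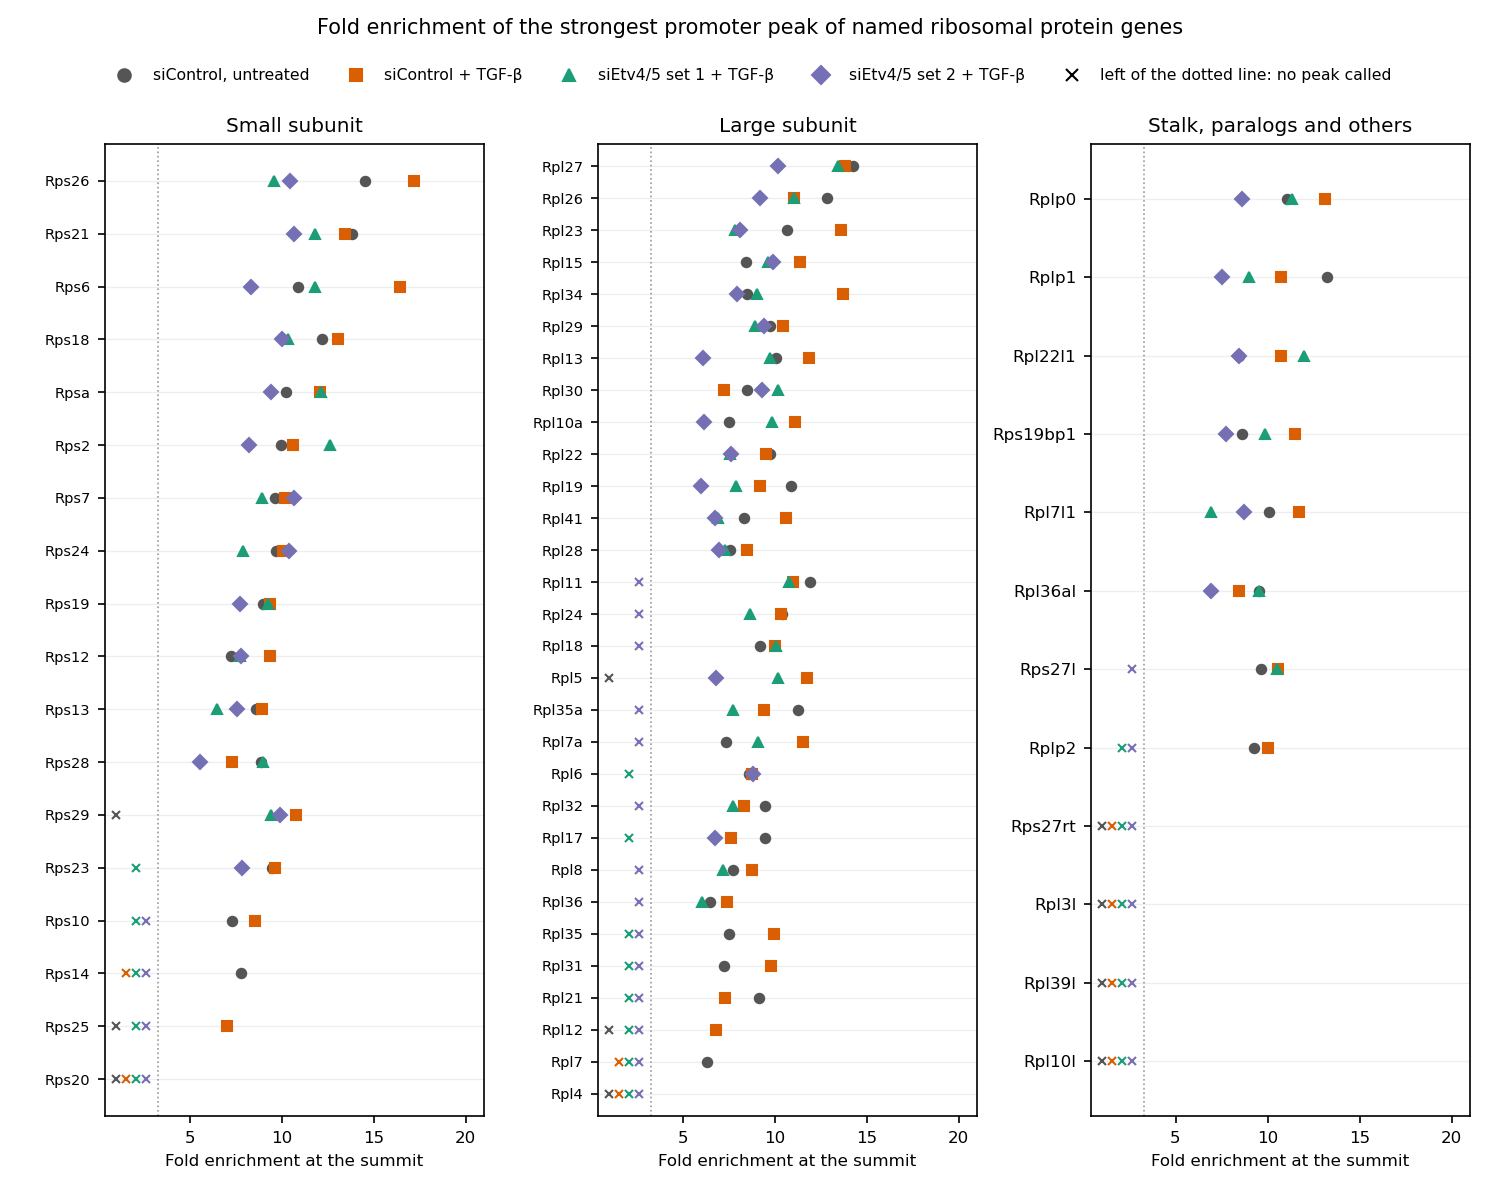
Fold enrichment at the summit of the strongest promoter peak (horizontal axis) of 60 of the 82 genes, those named in the text (rows, ordered within each panel by the number of libraries with a peak and then by mean fold enrichment), with 1 point per library and crosses left of the dotted line where no peak was called. Called values lie between 5.54 and 17.2, and the set 2 points (diamonds) are the lowest of the row for 20 of the 31 genes drawn that were called in all 4 libraries.

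Among the 30 small subunit genes, 27, 27, 24 and 26 were called in siControl untreated, siControl plus TGF-β, set 1 and set 2, and 22 were called in all 4 libraries. Rps20, whose protein lies in the head of the small subunit, was called in none, and the nearest peak lay 187 kb from its start in siControl untreated and 745 kb from it in the other 3 libraries. Rps14 was called in siControl untreated alone, at a fold enrichment of 7.81 with 17 fragments at the summit. Rps25 was called only in TGF-β-treated siControl cells, at 7.04 with 17 fragments. These single calls were near the lower end of the members' values. Rps10 was called in both siControl libraries, at 7.32 and 8.57, and in neither siRNA library. Rps23 (9.49, 9.64 and 7.85 in siControl untreated, siControl with TGF-β and set 2) lacked a peak in set 1 alone. Rps29 (10.8, 9.43 and 9.92 in the libraries with TGF-β) lacked it in siControl untreated alone.

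Among the 40 large subunit genes, 37, 38, 32 and 26 were called, in the same order, and 23 were called in all 4 libraries. Rpl4 was called in none, and the nearest peak lay between 29.2 and 108 kb from its start, although its start lies 271 bp from that of another gene, Zwilch, whose product acts at the kinetochore. Rpl12 was called only in TGF-β-treated siControl cells (6.83, 16 fragments) and Rpl7 in siControl untreated alone (6.33, 25 fragments). Rpl21 (9.16 and 7.30), Rpl31 (7.27 and 9.80) and Rpl35 (7.50 and 9.96) were called in both siControl libraries and in neither siRNA library. Rpl11, Rpl18, Rpl24, Rpl32, Rpl35a, Rpl36, Rpl7a and Rpl8 lacked a peak in set 2 alone, as did the paralog Rps27l. Rpl36 had the lowest values of these, at 6.48, 7.42 and 6.06 in siControl untreated, siControl with TGF-β and set 1. Values of 11.9, 10.98 and 10.8 were found for Rpl11, whose protein also binds Mdm2 outside the ribosome. Rpl24 had 10.4, 10.3 and 8.64, Rpl35a 11.3, 9.44 and 7.76, and Rpl7a 7.36, 11.5 and 9.07. Rpl17 (9.48, 7.64 and 6.79 in siControl untreated, siControl with TGF-β and set 2) and Rpl6 (8.63, 8.79 and 8.80) lacked a peak in set 1 alone. Rpl5, whose protein joins the ribosome together with RPL11 and 5S RNA, lacked it in siControl untreated alone and had 11.8, 10.2 and 6.84 in the other libraries.

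The stalk of the large subunit, where elongation factors bind, is made of RPLP0, RPLP1 and RPLP2. Rplp0 had fold enrichments of 11.1, 13.1, 11.3 and 8.59 in siControl untreated, siControl plus TGF-β, set 1 and set 2. Rplp1 had 13.2, 10.7, 8.99 and 7.50, and was the only stalk gene that was highest in siControl untreated. Rplp2 was called in both siControl libraries, at 9.29 and 10.0, and in neither siRNA library. Rpsa, which encodes a small subunit protein also known as the laminin receptor, had 10.2, 12.1, 12.1 and 9.43.

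The group of paralogs and other genes divided into those called nearly throughout and those never called. Rpl22l1, Rpl36al, Rpl7l1 and Rps19bp1 were called in all 4 libraries, and Rps27l in 3. Rpl22l1, a paralog of Rpl22, had 8.44, 10.7, 11.97 and 8.44, whereas Rpl22 itself had 9.77, 9.56, 7.60 and 7.62. Rpl3l, which is mainly expressed in muscle, and Rpl10l and Rpl39l, which are mainly expressed in testis, had no promoter peak in any library, nor did Rps27rt. The nearest peak to Rpl10l was 419 to 775 kb away, and that to Rpl39l 102 kb. The nearest peak to Rpl3l was 3.36 to 3.39 kb from its start in every library.

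The fold enrichment of the called promoters was close to that of accessible promoters in general. The median over members was 9.51, 10.3, 9.26 and 8.05 in siControl untreated, siControl plus TGF-β, set 1 and set 2. The median over all genes with a promoter peak was 9.16, 9.63, 8.74 and 7.70. The members' median thus lay at percentiles 56.7, 61.5, 60.5 and 58.7 of the called genes of each library. Peaks rested on few reads, with a median of 26, 28, 27 and 24 fragments at the summit and a range of 15 to 62.

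Rpl27, Rps26, Rps21 and Rps6 were among the 5 members with the highest mean over the 4 libraries. Rpl27, a protein of the large subunit, had fold enrichments of 14.3, 13.8, 13.45 and 10.2, so that set 2 stood below the other 3 libraries. Rps26, which lies near the exit of the messenger RNA channel, had 14.6 and 17.2 in the siControl libraries and 9.59 and 10.4 with the siRNA sets. Rps21 had 13.8, 13.44, 11.8 and 10.6. Rps6, the substrate of the S6 kinases, had 10.9, 16.44, 11.8 and 8.35 with 39, 62, 39 and 28 fragments, and the value in siControl with TGF-β stood apart from the other 3.

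Rps12, Rps13, Rpl28 and Rps28 were among the 5 lowest of the 51 genes called throughout. Rps12 had 7.27, 9.39, 7.75 and 7.77. Rps13 had 8.59, 8.92, 6.49 and 7.56, Rpl28 had 7.58, 8.52, 7.31 and 6.96, and Rps28 had 8.86, 7.28, 8.97 and 5.54. The start of Ndufa7, a subunit of respiratory complex I, lies 10 bp from that of Rps28. Geometric means over the 4 libraries ran from 7.53 for Rps28 to 12.8 for Rpl27.

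The response of these promoters to TGF-β, which drives the epithelial-mesenchymal transition in EpRas cells, was described by comparing siControl cells with and without it. Of 69 members called in both libraries, 48 were higher and 21 lower with TGF-β, with a median log2 ratio of 0.11 (SD 0.24 over genes, a fold of 1.08). Over the 7222 genes of the genome called in both, the median was 0.09, and 63.4% were higher. A ratio of 1.5-fold or more upward was reached by 3 members, against 3.92% of all genes, and downward by none, against 0.845%. The 3 were Rpl34 (8.49 and 13.7 without and with TGF-β), Rpl7a (7.36 and 11.5) and Rps6 (10.9 and 16.44). At the other end were Rpl21 (9.16 and 7.30), Rpl17 (9.48 and 7.64) and Rplp1 (13.2 and 10.7). Of the members called without TGF-β, 69 of 72 were also called with it, against 92.2% of all genes.

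The effect of Etv4 and Etv5 knockdown was described by comparing each siRNA set with siControl in the presence of TGF-β. Both comparisons use the same siControl library, so that they are not independent. For set 1, 50 of the 62 members called in both libraries were lower, with a median log2 ratio of -0.23 (SD 0.25, a fold of 0.853). The median over all 6908 genes was -0.18, and 74.1% were lower. A ratio of 1.5-fold or more downward was reached by 6 members, against 6.93% of all genes, and upward by none, against 0.405%. For set 2, 51 of 57 members were lower, with a median of -0.37 (SD 0.28, a fold of 0.771). The median over all 5672 genes was -0.40, and 91.3% were lower. Here 16 members were 1.5-fold or more lower, against 26.4% of all genes, and none was higher by that much, against 0.0353%. The members were thus lower in both siRNA libraries, as were the promoters of the genome as a whole. By subunit, the median was -0.27 for 23 small and -0.23 for 32 large subunit genes with set 1, and -0.34 for 25 small and -0.49 for 26 large subunit genes with set 2.

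**Figure D2:**
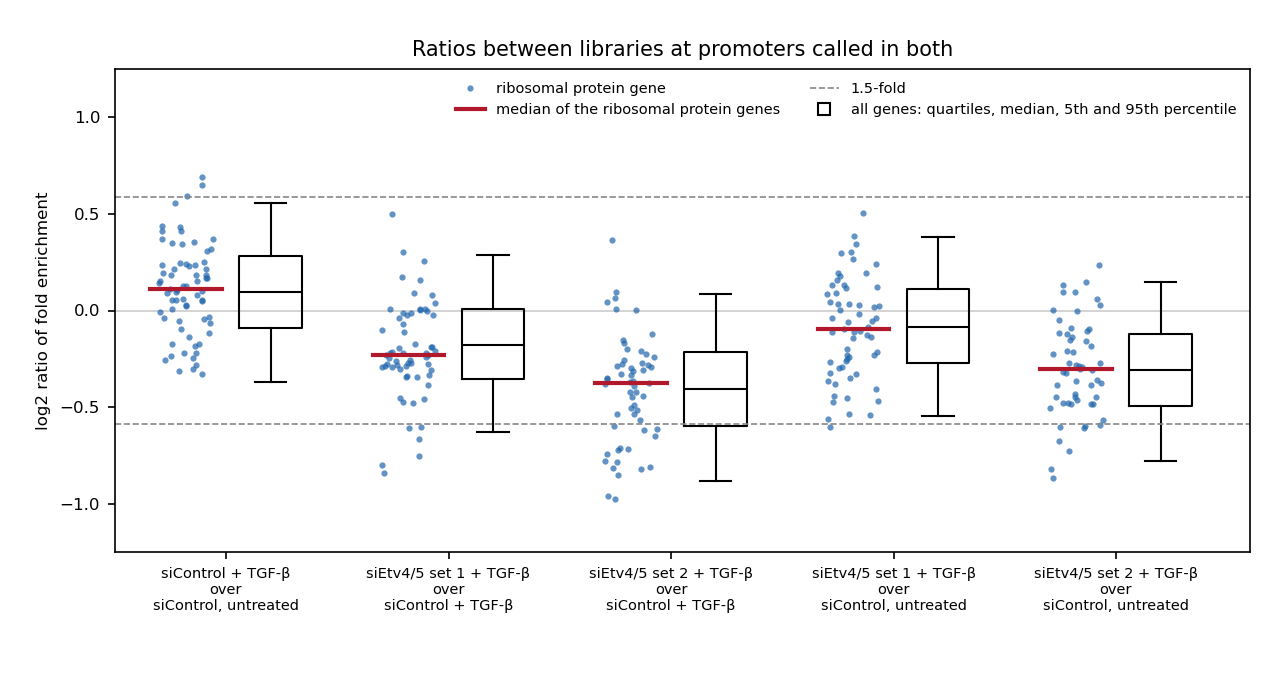
Log2 ratio of fold enrichment between 2 libraries (vertical axis) for each comparison (horizontal axis), with points for ribosomal protein genes called in both libraries, a red bar at their median and a box for all protein-coding autosomal genes called in both. The members' medians, from left to right 0.11, -0.23, -0.37, -0.10 and -0.31, lie inside the box of all genes in each comparison.

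The members farthest from the median are given with their values. With set 1, Rps26 was the lowest, at 17.2 in siControl with TGF-β and 9.59 in set 1 (47 and 28 fragments). Rpl23 followed, at 13.6 and 7.83, and then the paralog Rpl7l1, at 11.7 and 6.94. Rpl30 was the highest, at 7.23 and 10.2 (27 and 46 fragments), followed by Rps28 and Rps2. With set 2, Rps6 was the lowest, at 16.44 and 8.35 (62 and 28 fragments), followed by Rpl13 (11.8 and 6.08) and Rpl10a (11.1 and 6.15). Rpl30 was again the highest, at 7.23 and 9.32, and Rps7 was also among the 3 highest. For Rpl13 the strongest peak in set 2 had its summit at -1843 bp from the start, where it was barely above the peak at the start, at 6.07. Rpl41, counted as 1.5-fold or more lower with both sets, had its 10.6 in siControl with TGF-β at the start of another gene, Zc3h10. Its 6.94 in set 1 was at its own start, and its 6.76 in set 2 was at that of Zc3h10. At its own start, siControl with TGF-β had 8.38 and set 2 had 6.44. Scaled to the estimated depth, the log2 ratio of summit fragments was -0.83 for Rps26 with set 1 (counting SE 0.34) and -1.49 for Rps6 with set 2 (counting SE 0.33). On this scale Rps26 was not the lowest with set 1, and Rpl7l1 was lower, at -0.999 (counting SE 0.43). Over the members the SD of such ratios was 0.32 in both comparisons, below the 0.39 and 0.40 that counting error alone gives for independent counts of this size.

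Compared with siControl untreated, where the siRNA libraries are the same as in the comparisons above, the median log2 ratio was -0.10 for set 1 (61 members) and -0.31 for set 2 (56 members), against -0.08 and -0.31 over all genes. Lower values were found for 37 and 48 members, against 61% and 85.7% of all genes. Only 1 member, Rps26, was 1.5-fold or more lower with set 1, against 3.74% of all genes. With set 2, 8 members were, against 16.2%, and the lowest were Rpl19 (10.9 and 5.99), Rplp1 (13.2 and 7.50) and Rpl13 (10.1 and 6.08). The highest with set 1 were Rpl22l1 (8.44 and 11.97), Rpl10a and Rps2, and with set 2 Rpl15 (8.43 and 9.91), Rps7 and Rpl30. None was 1.5-fold or more higher in either, against 1.16% and 0.162% of all genes.

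Fold enrichment divides by the local background of the same library, so the ratios were also computed from summit fragments scaled to the estimated depth (FPM, summit fragments over the depth in units of 1 M reads). With TGF-β over no treatment, 2 members were 1.5-fold or more higher and 1 lower, against 6% and 2.46% of all genes. With set 1 over siControl plus TGF-β, 1 was higher and 9 lower, against 0.579% and 14.5%. With set 2, none was higher and 33 were lower, against 0.0353% and 62.8%. Over siControl untreated, none was higher and 6 were lower with set 1, against 1.19% and 10.2%, and none was higher and 27 were lower with set 2, against 0.018% and 52.9%. On this scale too, the shares of members that were lower, from 1.45% with TGF-β to 57.9% with set 2 over siControl plus TGF-β, lay close to those of all genes.

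Whether a peak was still called with the siRNAs differed in number between the subunits. Of the 73 members called in siControl with TGF-β, 57 were also called in set 2 (78.1%, 67.3 to 86.0), against 68.7% of all genes. Of the small subunit genes 25 of 27 were (92.6%, 76.6 to 97.9), and of the large subunit genes 26 of 38 (68.4%, 52.5 to 80.9). The intervals overlap, and the split was noticed after the values were seen. CpG-rich promoter windows, defined further below, made up 27 of 30 small and 27 of 40 large subunit genes, and the part of this difference in the calls was not tested. Of the 72 members called in siControl untreated, 61 were also called in set 1, against 85.1% of all genes, and 56 in set 2, against 71.2%. In set 1 the shares of those called in siControl with TGF-β were alike, with 23 of 27 small subunit genes (85.2%) and 32 of 38 large subunit genes (84.2%), against 83.7% of all genes. The 16 members not called in set 2 had a median of 24 summit fragments in siControl with TGF-β, and the 57 that were called had 29. Over the 51 members called in all 4 libraries, the highest value was in siControl with TGF-β for 28, in siControl untreated for 10, in set 1 for 10 and in set 2 for 3. In the same order these are 54.9%, 19.6%, 19.6% and 5.88%. Over all genes called in all 4 libraries the shares were 53.9%, 28.6%, 14.9% and 2.58%. The lowest value was in set 2 for 36 of the 51 members (70.6%), against 70.5% of all genes called in all 4 libraries.

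The summit lay close to the start. The median distance from the strongest summit to the nearest TSS of the gene was -36.5, -43, -52 and -37.5 bp in siControl untreated, siControl plus TGF-β, set 1 and set 2, where negative values are upstream. Of the members' summits, 86.1%, 83.6%, 87.3% and 77.6% were upstream of the start, against 79.8%, 79.0%, 79.4% and 79.3% over all genes. A summit within 100 bp of the start was found for 83.3%, 84.9%, 82.5% and 89.7% of called members, against 59.6%, 58.9%, 58.2% and 58.0% of called genes. The median peak width was 199, 221, 207 and 184.5 bp, against 199, 208, 206 and 187 bp over all genes.

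**Figure D3:**
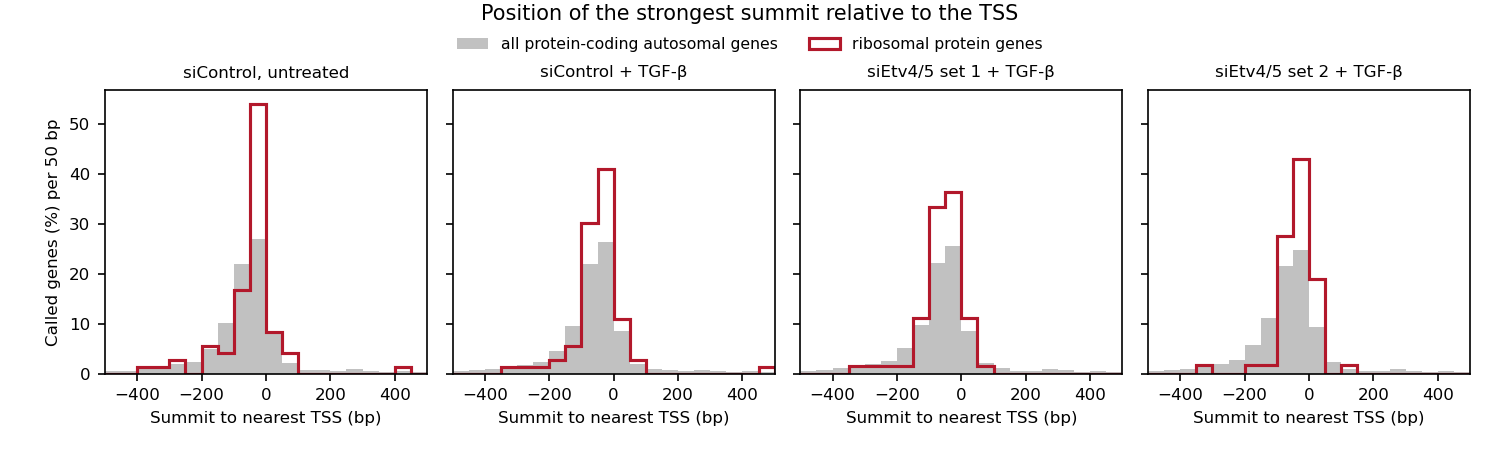
Distance from the strongest summit to the nearest TSS of the gene in bp (horizontal axis, upstream negative, summits beyond 500 bp not drawn) and share of called genes per 50 bp in percent (vertical axis), in 1 panel per library, with ribosomal protein genes as a red line and all protein-coding autosomal genes in grey. In every panel the red line is highest in the 50 bp upstream of 0 and lies above the grey bars there.

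A few members had summits elsewhere or more than 1 peak. The strongest summit of Rpl32 lay at -325 to -338 bp and that of Rpl35a at -254 to -262 bp from the start in the 3 libraries in which each was called, and the latter is close to the start of Iqcg. The summit of Rpl35 lay 446 and 456 bp downstream of its start in the 2 siControl libraries. Rpl41, which encodes the smallest ribosomal protein, had a second peak 1276 to 1309 bp downstream at the start of the zinc finger gene Zc3h10 in every library, and it was the stronger of the pair in siControl with TGF-β and in set 2. Rpl13 had a second peak with its summit at -1843 to -1895 bp in every library but set 1. Rps19 had a second peak in every library, Rpl18 in the 3 libraries in which it was called, and Rpl7l1 in all but set 1. The single library with a call for Rps14 also held a pair of peaks there, of nearly equal fold enrichment at 7.81 and 7.76. The members' peaks nearest to the 2 kb limit were this upstream peak of Rpl13, with its middle 1854.5 to 1868.5 bp from the start, on the inside. On the outside was a peak 2108.5 to 2126 bp from the start of Rps19bp1, at 8.72, 7.63 and 9.65 in siControl untreated, siControl with TGF-β and set 1.

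Promoter sequence was described in a window from 250 bases before to 50 bases after 1 start per gene. Letters were searched on both strands, and matches of different motifs were allowed to overlap. The letters CCGGAAG, bound by ETS family factors, were present in 28 of 82 members (34.1%, 24.8 to 44.9), against 11.4% of all protein-coding autosomal promoters. Among all CpG-rich promoters 20.0% held them, and among all genes called in all 4 libraries 22.5%. The mitochondrial ribosomal protein genes held them in 29 of 78 (37.2%). Rps21 had a pair of such matches, both visible in the stretch above, and Rps6, Rpl26, Rpl15 and Rps18 each had at least 1 before the start, whereas the only match of Rps26 began 27 bases after its start, outside the stretch shown. The median start of the 36 matches was 25.5 bases before the TSS. A match of these letters is no evidence of binding. Between members with and without them, the median log2 ratio was -0.23 and -0.23 for set 1 over siControl with TGF-β, and -0.35 and -0.42 for set 2, where it was -0.40 and -0.41 over all genes. With them, 20 of 26 members called in siControl with TGF-β were also called in set 2, and without them 37 of 47 (76.9% and 78.7%). Over all genes the shares were 72.6% and 67.7%.

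The run of 6 or more C or T over the start was present in 18 of 82 members (22.0%, 14.361 to 32.1), against 6.80% of all promoters. In genes called in all 4 libraries the share was 6.45%. It was 7.69% in mitochondrial ribosomal protein genes, and 35.7% (5 of 14) in the genes of elongation factors and other TOP messages. The run was 20 bases long in Rps2 and Rpl34, 19 in Rps24 and 18 in Rpl29. A C stood at the annotated start itself in 31.7% of members, against 16.7% of all genes. The annotated start carried a tag for support by capped RNA in 3 of 82 members, so that starts may be off by some bases and such runs may be missed. The Rpl4 run, 14 bases long, shows that the feature occurred in a promoter with no peak.

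The letters AANATGGC (YY1) were present in 10 members (12.2%, against 6.47% of all promoters), TGACGTCA (CRE) in 6 (7.32%, against 2.47%) and CACGTG (E-box) in 10 (12.2%, against 7.81%). Among genes called in all 4 libraries these shares were 10.8%, 4.20% and 10.7%. Among mitochondrial ribosomal protein genes they were 20.5%, 2.56% and 6.41%. GGGCGG (SP1) was present in 41 (50.0%), against 46.0% of all promoters, 66.2% of genes called in all 4 libraries and 77.0% of CpG-rich promoters. CCAAT (NFY) was present in 22 (26.8%, against 37.7% of all promoters and 48.3% of genes called in all 4 libraries) and TGANTCA (AP1) in 5 (6.10%, against 6.85%). TATAAA between 40 and 15 bases before the start was present in 1, Rps2, against 2.43%. Windows with a GC content of 50% or more and a ratio of observed to expected CpG of 0.6 or more, called CpG-rich here, made up 63 of 82 members (76.8%, 66.6 to 84.6), against 44.9% of all genes. Such windows also made up 74.5% of all genes called in all 4 libraries and 76.9% of mitochondrial ribosomal protein genes. Of the 63 members with them, 45 were called in all 4 libraries (71.4%), against 41.2% of all CpG-rich promoters. Of the other 19 members, 6 were (31.6%), against 11.5% of all other promoters.

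**Figure D4:**
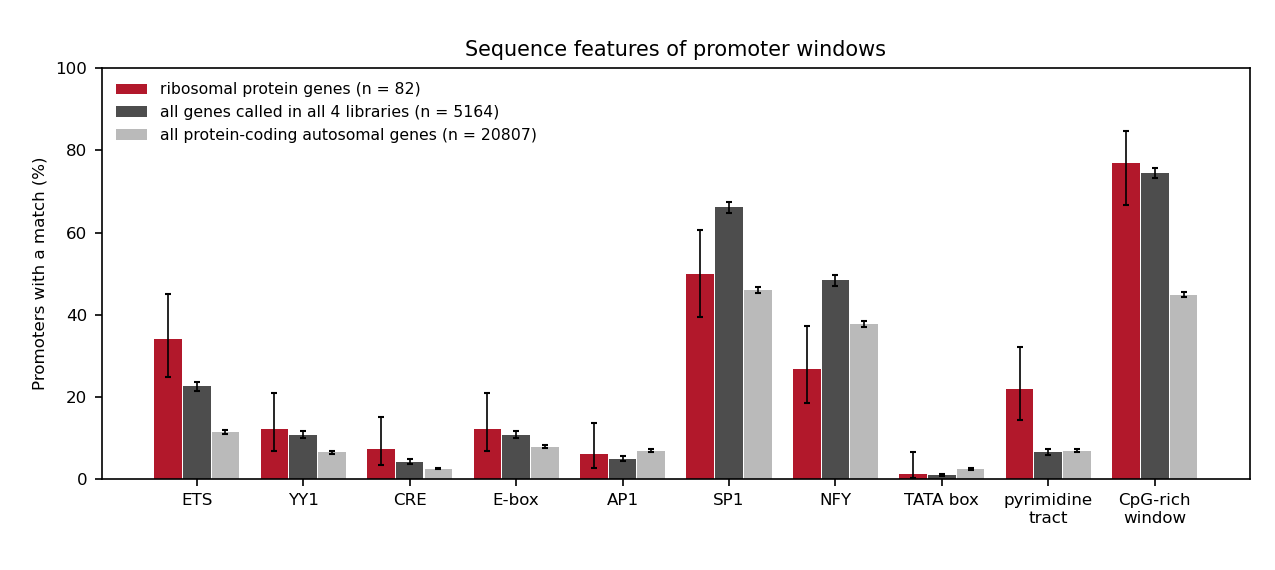
Share of promoter windows with each sequence feature in percent (vertical axis) for ribosomal protein genes, all genes called in all 4 libraries and all protein-coding autosomal genes, with 95% Wilson intervals as bars that treat genes as independent draws. The members lie above all genes for the pyrimidine run (22.0% against 6.80%), the ETS letters (34.1% against 11.4%) and CpG-rich windows (76.8% against 44.9%). Among all genes called in all 4 libraries these shares are 6.45%, 22.5% and 74.5%, so that for CpG-rich windows the members lie close to that group.

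Other lists of genes for translation and protein turnover were also called more often than all genes. The mitochondrial ribosomal proteins, whose genes are separate from those of the cytosolic ribosome, had a promoter peak at 65, 64, 55 and 47 of 78 genes in siControl untreated, siControl plus TGF-β, set 1 and set 2, and at 41 (52.6%) in all 4. Initiation factors were called at 41, 42, 41 and 37 of 52 genes, and at 35 (67.3%) in all 4. Proteasome subunits, a list outside translation that is also needed in every cell, were called at 33, 34, 32 and 27 of 39 genes, and at 25 (64.1%) in all 4. Elongation factors and other genes whose messages carry a TOP element, a list that includes Fau and Rack1, were called at 14, 14, 13 and 13 of 14 genes. In all 4 libraries 13 of these 14 were called (92.9%, 68.5 to 98.7). Ribosome assembly genes were called at 19, 20, 20 and 18 of 22 genes, and at 16 (72.7%) in all 4.

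**Figure D5:**
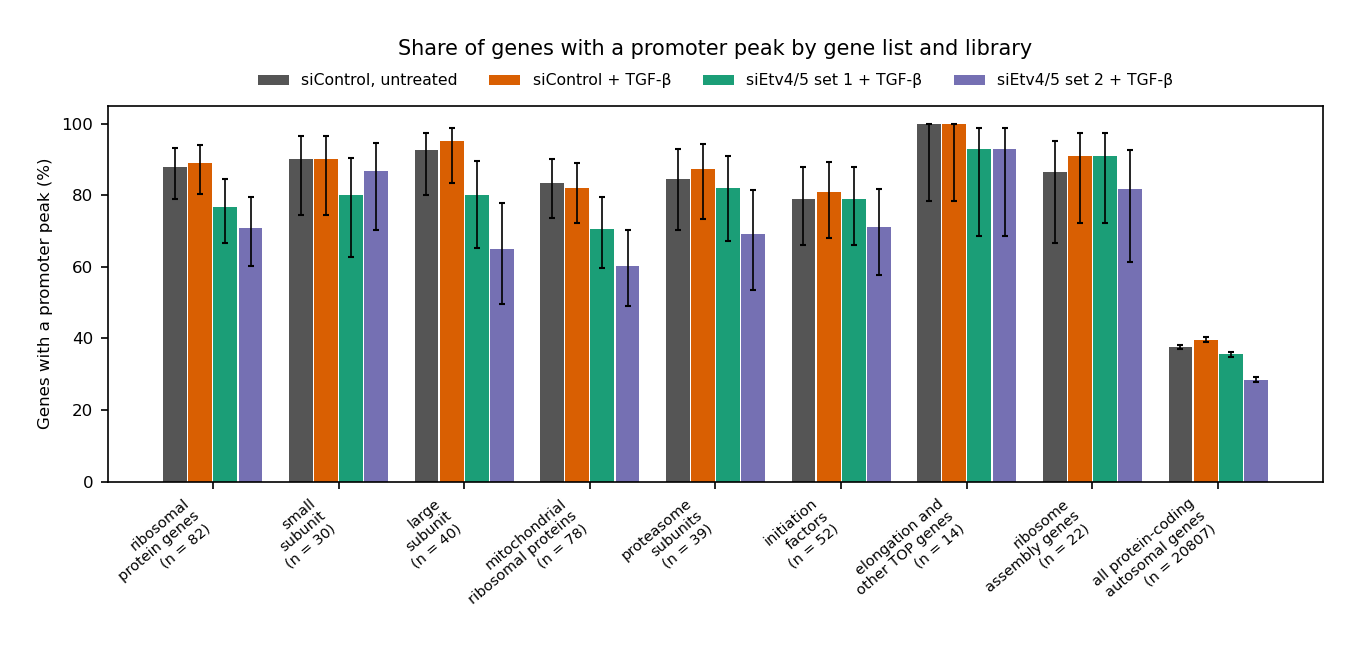
Share of genes with a promoter peak in percent (vertical axis) by gene list (horizontal axis) and library (colours), with 95% Wilson intervals as black bars. The bars treat genes as independent draws and do not cover the error of read counts. Every list lies above all protein-coding autosomal genes in each library, and set 2 is the lowest library or level with the lowest in every list except the small subunit genes, where set 1 is lowest.

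Fau and Rack1 contribute ribosomal proteins under other names and were not among the members. Fau, which encodes RPS30 fused to a ubiquitin-like protein, had fold enrichments of 10.9, 11.9, 6.83 and 6.35, so that both siControl values were above both siRNA values. Rack1, a scaffold of the small subunit, was called in both siControl libraries, at 8.47 and 9.003, and in neither siRNA library.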

How the data were processed

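FAIRE-seq peak lists of 4 libraries were used, 1 per group as named by the sample labels. The study describes its day 4 siRNA data as coming from biological replicates, so that each list may combine them, and how they were combined is not given in the sources used here. The study's methods state sequencing on an Ion Proton, trimming of reads, mapping to mm10 with bowtie2 and peak calling with MACS2. The submitters' processing notes name MACS2 version 2.1.0, and the methods name another version. How reads with several matches in the genome were treated is not given in the sources used here, and ribosomal protein genes have many processed copies. Each deposited list holds the authors' fold enrichment, taken here as the ratio of signal at a summit to its local background with 1 added to each. Values thus lie below the plain ratio of signal to background. It also holds the authors' -log10 p-value, the matching -log10 q-value and a score that their caller derived from the q-value. The score was not used.

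Summit fragment numbers were solved from the deposited fold enrichment and the Poisson p-value, and came out whole within 0.05 fragments in 100% of peaks. Depth was estimated from the lowest local background, taken as the genome-wide one, with an effective genome size of 1.87 Gb and the narrowest peak width as the fragment length. FPM values are summit fragments over this depth in units of 1 M reads. A gene's value is that of its strongest peak with its middle within 2 kb of a GENCODE vM21 TSS. All peaks outside the mitochondrial chromosome lay inside the GRCm38 chromosomes. Python 3.11.15, numpy 2.4.6, scipy 1.17.1, pysam 0.24.0 and samtools 1.23.1 were used, with matplotlib 3.10.9 for plots. The peak assignment and the solving of fragments were tested on simulated data.

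With 1 list per group no test was made, and counts, medians and 95% Wilson intervals are given beside the same over all protein-coding autosomal genes. The members and gene lists were chosen with earlier results of these data known. Genes named were the 5 highest and 5 lowest means, all members called in fewer than 4 libraries, the 3 largest and 3 smallest ratios of each comparison, the paralogs, the stalk genes, Rpsa, and Fau and Rack1. Some genes that this rule selects are not reported here. Other members are named where summit position or sequence is described, chosen after their values were seen, as were the sequence stretches of Rps2 and Rpl4, the grouping of Rps27rt with the paralogs and the CpG-rich class. For sequence, 1 start per gene was taken by APPRIS rank, then the tag for capped RNA support, then the lowest transcript number. This rule replaced a first one, the most shared start among principal transcripts, after the results of the first had been seen, because it placed 1 member's window far from its other starts.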

Additional observations from a re-analysis of the deposited data

How the results depend on the processing

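No paired analysis was possible because each group has 1 peak list, and no replicate could be left out for the same reason. Of 291 values recomputed under 16 settings, 259 stayed within the limits set for them. The limits were a factor of 1.5 either way for a count, and the interval of the main value for a median or share. Promoter windows of 1 kb or 500 bp, the stricter q-value limit and the peak nearest the TSS moved no value past these limits. Equal list lengths did not either, but gave 66, 61, 57 and 58 called members in place of 72, 73, 63 and 58, which changed the order of the libraries, and a median of -0.06 in place of -0.10 for set 1 over siControl untreated. With FPM in place of fold enrichment, the member medians were 1.70, 1.72, 1.56 and 1.16 in siControl untreated, siControl plus TGF-β, set 1 and set 2. These medians are in another unit and could not stay within limits set on fold enrichment. The median log2 ratios were then -0.29 and -0.63 for set 1 and set 2 over siControl with TGF-β, and -0.23 and -0.56 over siControl untreated (all genes -0.25, -0.69, -0.18 and -0.61). At 1.5-fold, FPM gave 1 member lower with TGF-β and 1 higher with set 1 over siControl with TGF-β, and 33 lower with set 2. Against siControl untreated, 6 were lower with set 1 and 27 with set 2. Without members that have another TSS within 2 kb, 1 member was 1.5-fold higher with TGF-β. Over siControl with TGF-β, 3 were lower with set 1 and 9 with set 2, and over siControl untreated 4 were lower with set 2. That setting left out 47 of the 82 members, so these counts come from a shorter list. They were compared as counts and not as shares of the members left. A limit of 25% more or a ratio equally far below gave 13 higher and 1 lower with TGF-β. Over siControl with TGF-β it gave 1 higher and 15 lower for set 1, and 1 higher and 35 lower for set 2. Over siControl untreated it gave 3 higher and 13 lower for set 1, and 26 lower for set 2. In the order given, 69, 62, 57, 61 and 56 members were called in both libraries. The share of all genes past this limit was not computed. The median log2 ratios over all genes were 0.09, -0.18, -0.40, -0.08 and -0.31 in the same order. A fold of 2 gave 0 members in every comparison. With the first start rule, added after the data were seen, ETS letters were in 24 members (29.3%), pyrimidine runs in 13 (15.9%) and TATA letters in 0. A check with RefSeq starts was void, because 62 of 82 members matched, under the 80% needed. Leaving out set 2 was also added after the data were seen. A peak list holds no value for a promoter without a call, so that a ratio could be given only where both libraries had one, and with 15 to 62 fragments per summit the counting SD of a single gene's log2 FPM ratio was about 0.40.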

Other observations

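Ribosomal protein genes on the X chromosome were outside the autosomal set and give further values. Rpl10, the large subunit protein that joins last, had fold enrichments of 8.98, 10.6, 7.48 and 9.67 in siControl untreated, siControl plus TGF-β, set 1 and set 2. Rpl36a was called in siControl with TGF-β (8.34) and set 1 (6.26). Rps4x was called in set 1 alone, at 6.26, and Rpl39 in no library. Its autosomal paralog Rpl39l had no peak either, whereas Rpl36al, the autosomal paralog of Rpl36a, was called in all 4 libraries.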
